A study of Mus musculus with 6 samples.

Results

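The molecular chaperones of the endoplasmic reticulum (ER), the cytosol and the mitochondria were followed in microglia and neural stem and progenitor cells (NSPCs) of the mouse subventricular zone (SVZ) after cortical stroke. A fixed list of 36 gene symbols was matched to the 34203 rows of the count matrix, and all 36 symbols were found. The list holds 15 ER chaperones and folding enzymes, 4 regulators of the unfolded protein response (UPR), 9 cytosolic heat shock proteins (HSPs), 5 subunits of the cytosolic chaperonin TRiC and 3 mitochondrial chaperones. The rule itself uses gene names and no measured value, but the members were chosen with earlier results of these data known.

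Chaperones bind unfolded proteins and help them to reach or keep their final shape. In the ER, the HSP70 protein Hspa5 (also called BiP or Grp78), the HSP90 protein Hsp90b1, the lectin chaperones calreticulin (Calr) and calnexin (Canx) and the protein disulfide isomerases fold secreted and membrane proteins, which microglia make in quantity as receptors, lysosomal proteases and complement. When folding capacity falls short, the UPR raises many of these genes through the transcription factors Atf6, Xbp1 and Atf4, whereas the cytosolic heat shock response acts through Hsf1 on Hspa1a, Hspb1 and Dnajb1.

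The mice carried Nestin-CreERT2 and R26-yfp on a C57BL/6N background. At an age of 8 to 12 weeks they received tamoxifen, which switched on yellow fluorescent protein (YFP) in nestin-expressing stem cells and their progeny. Photothrombotic ischemia (PT) of the cortex was induced by Rose Bengal and light, and the lateral SVZ of the same side, which lies away from the lesion, was taken from uninjured mice and from mice killed 1 day (PT D1) or 7 days (PT D7) after the lesion. All animals of the 3 conditions carried the same alleles and were treated with tamoxifen. CD11b+CD45low microglia and YFP+ NSPCs were sorted as single cells, with CD45high and Ly6C/Ly6G+ cells gated out, and sequenced by mCEL-Seq2, which counts unique molecular identifiers (UMIs) at the 3′ end of each transcript. Since 1 transcript gives 1 UMI, the levels do not grow with the length of a gene. Each condition had 2 libraries. The paper reports fewer plates than libraries, and no source used here says which mice or plates went into a library. The 2 libraries of a condition may thus share a plate or mice. The p-values therefore measure the spread between these libraries, which may not be the spread between animals. A condition and the day on which its libraries were made cannot be told apart.

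The 6 libraries held 416 microglia, 222 NSPCs and 20 cells of mixed identity as annotated by the authors, and no cell name occurred in more than 1 library. Microglial sums rested on 54 to 84 cells and 294984 to 468186 UMIs per library, and NSPC sums on 15 to 61 cells and 82504 to 497292 UMIs. The marker genes of the 2 classes, none of them a chaperone, placed 624 of 638 cells (97.8%) in their annotated class. NSPC markers reached 3.38% to 13.9% of their NSPC level in the microglial sums, and microglial markers 4.23% to 14.4% of their microglial level in the NSPC sums. Levels below are UMIs per 1000000 UMIs of a class in a library (CPM), in the order library 1 and library 2. Calls were made by edgeR's quasi-likelihood test where the p, adjusted by Benjamini-Hochberg over all genes tested, was below 0.05.

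The promoters of the members were searched for the motifs of the ER stress and heat shock responses, since many members are targets of the same factors. RefSeq promoters (build GRCm38.p6, 250 bases before to 50 bases after the start site) matched 30 of the 36 members. The ER stress response element (ERSE), searched as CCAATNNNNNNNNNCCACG on both strands, stood in the promoters of 7 of 13 ER members, Calr, Canx, Hspa5, Hsp90b1, Pdia6, Dnajc3 and Creld2, and in 37 of 27025 genes overall (0.137%). It was found in none of the other 17 members with a promoter. The windows below show 20 bases on each side of the element in the ER members whose levels the results turn on, read along the strand of the gene, with the element in capitals; in Calr and in this site of Hsp90b1 it lies on the opposite strand and reads from CGTGG to ATTGG.
Hspa5 (chr2:34772005-34772063, plus strand, first base of the element 65 bases upstream of the start site): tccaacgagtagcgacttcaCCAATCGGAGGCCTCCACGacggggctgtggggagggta
Calr (chr8:84847055-84847113, minus strand, 162 bases upstream): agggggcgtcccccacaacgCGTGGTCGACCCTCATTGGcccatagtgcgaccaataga
Hsp90b1 (chr10:86705513-86705571, minus strand, 107 bases upstream): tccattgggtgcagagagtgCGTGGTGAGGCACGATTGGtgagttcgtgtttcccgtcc
Pdia6 (chr12:17266471-17266529, plus strand, 98 bases upstream): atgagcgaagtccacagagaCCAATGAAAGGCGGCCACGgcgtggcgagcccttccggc
Canx (chr11:50325780-50325838, minus strand, 145 bases upstream): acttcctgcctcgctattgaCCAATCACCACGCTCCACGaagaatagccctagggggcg

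The related element ERSE-II, searched on both strands as ATTGG and CCACG with 1 base between them, was present in Herpud1 and Dnajb11 and in 12 genes overall (0.0444%). It is shown for Herpud1, an ER membrane protein of ER-associated degradation, which also held the amino acid response element TGATGCAA (279 genes, 1.03%). The heat shock element, searched on both strands as GAA, TTC and GAA with 2 bases between each, stood in Hsph1, Hspd1 and Hspe1 and in 179 genes overall (0.662%). Hspd1 and Hspe1 are neighbours that start in opposite directions, and the same window serves both, with 2 overlapping matches in capitals. None of these motifs was found in the windows of Sdf2l1, Atf4, Hspb1, Hspa1a or Dnajb1, which says only that these letters are not there.
Herpud1 (chr8:94386357-94386407, plus strand, ERSE-II 52 bases upstream): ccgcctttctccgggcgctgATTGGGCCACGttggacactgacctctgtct
Hspe1 (chr1:55088039-55088096, plus strand, first match 89 bases upstream): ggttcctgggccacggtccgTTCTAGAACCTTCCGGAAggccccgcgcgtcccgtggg

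In microglia, the summed ER chaperones of the list were lower at PT D1 and back at the uninjured level at PT D7. Their summed level was 24.9 and 24.3 UMIs per 10000 in uninjured mice, 17.8 and 14.4 at PT D1, then 25.0 and 24.2 at PT D7. Both PT D1 libraries thus lay below the other 4, at 65.5% ± 9.89 (SD, n = 2) of the uninjured mean, whereas PT D7 stood at 99.9% ± 2.37 (SD, n = 2). The median log2 fold change of the 13 ER members tested was -0.48 at PT D1 against uninjured, with 11 of 13 below 0, beside a median of 0.04 over all genes tested. From PT D1 to PT D7 it was 0.70, with 11 of 13 above 0, beside -0.01 over all genes. Both of these comparisons use the same PT D1 libraries. The members were chosen with earlier results of these data known, so these values are a description. Of 17 further genes of ER folding and quality control tested at PT D1, 10 were below 0. Their median was -0.05, and 0 were called.

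**Figure D1:**
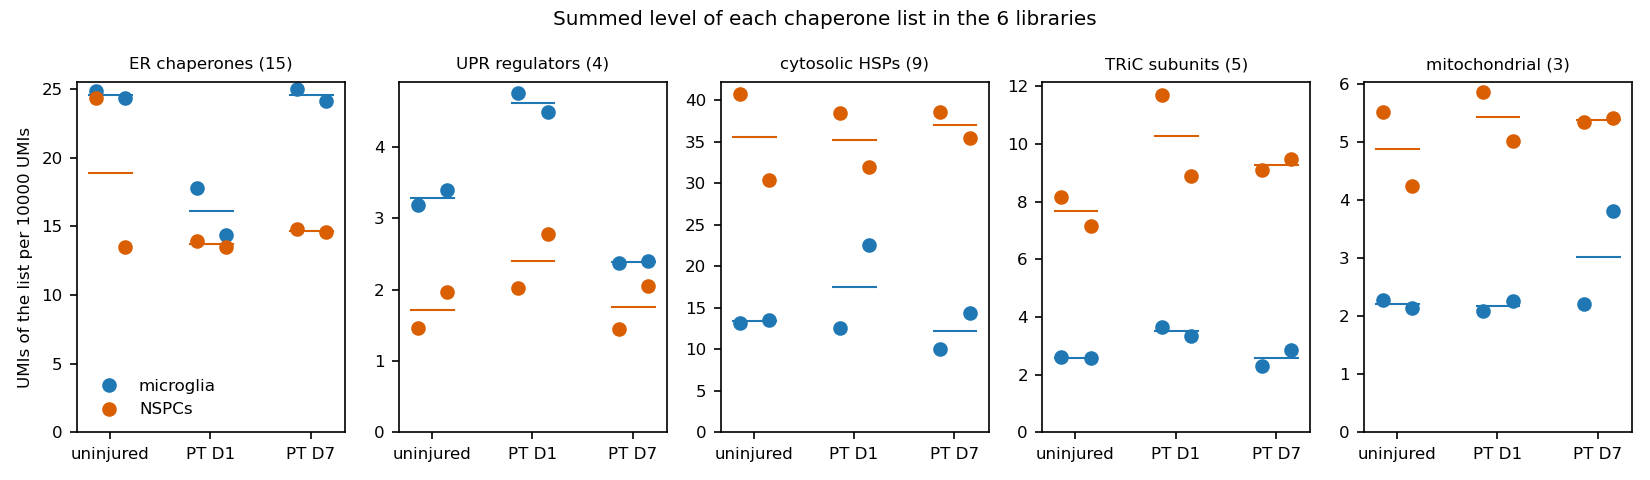
Summed level of each chaperone list in UMIs per 10000 UMIs (vertical axis) by condition (horizontal axis), with microglia and NSPCs in different colours, points for the libraries and horizontal lines for the mean of the 2 libraries of a condition. The microglial ER list dips at PT D1 to 17.8 and 14.4 and returns to 25.0 and 24.2 at PT D7.

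Sdf2l1, a small partner of the ER HSP70 system (chr16:16948002-16950252, minus strand, GRCm39), showed the steepest fall. It was measured at 30.2 and 42.7 CPM in uninjured microglia, 2.78 and 2.23 CPM at PT D1, and 50.9 and 54.0 CPM at PT D7. These levels stood for 11 and 20 UMIs, then 1 and 1, then 15 and 16, so the groups did not overlap although the counts were low. Pooled over libraries, the PT D1 level was 0.0665 of the uninjured level (exact 95% interval 0.00771 to 0.261, for counting error only) and 0.0472 of the PT D7 level (0.00548 to 0.186). The fitted log2 fold change was -3.60 (SE 0.65, adjusted p = 0.00948 by edgeR's quasi-likelihood test) at PT D1 against uninjured and 4.32 (SE 0.62, adjusted p = 0.00323) at PT D7 against PT D1, sizes that depend on the prior count at so few UMIs. Without the second uninjured library the adjusted p of the fall was 0.100, and over all alternatives it ran from 0.000157 to 0.100. With cells under 3 UMIs of NSPC markers the adjusted p of the rise was 0.108, the highest of a range from 7.54e-07.

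Pdia6, a protein disulfide isomerase (chr12:17316533-17335913, plus strand, GRCm39), was the other ER member that passed. Its levels were 162 and 160 CPM in uninjured microglia, 80.6 and 62.5 CPM at PT D1, and 146 and 172 CPM at PT D7. The PT D1 libraries were well separated from the other 4, which lay between 146 and 172 CPM. The log2 fold change was -1.05 (SE 0.28, adjusted p = 0.0488) at PT D1 and 1.25 (SE 0.28, adjusted p = 0.0342) from PT D1 to PT D7 by edgeR's quasi-likelihood test. The first call sat at the threshold and was lost in 8 of 15 alternatives, with adjusted p from 0.0129 to 0.319 and the same sign in all of them. The call from PT D1 to PT D7 was lost in 9 of 15, with adjusted p from 0.00509 to 0.138.

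The abundant ER chaperones had the same order of libraries without passing the test. Hspa5 was measured at 475 and 429 CPM in uninjured microglia, 325 and 339 CPM at PT D1, and 481 and 533 CPM at PT D7. Hsp90b1 (Grp94), which folds integrins and Toll-like receptors, was at 475 and 455 CPM, then 325 and 176 CPM, then 515 and 388 CPM. Calr, which the study lists among its ligands, was at 365 and 397 CPM, then 247 and 188 CPM, then 383 and 391 CPM. In each of the 3 genes both PT D1 libraries lay below the other 4. The log2 fold changes at PT D1 were -0.32 for Hspa5 (SE 0.23, adjusted p = 0.475), -0.77 for Hsp90b1 (SE 0.32, adjusted p = 0.183) and -0.69 for Calr (SE 0.25, adjusted p = 0.136) by edgeR's quasi-likelihood test. Canx, the membrane-bound partner of Calr, was at 272 and 258 CPM, then 183 and 165 CPM, then 210 and 219 CPM, with a log2 fold change of -0.48 (SE 0.24, adjusted p = 0.275). Of the 13 ER members tested, 8 had both PT D1 libraries below the other 4 (61.5%, against 14.5% of all genes tested) and 1, the prolyl hydroxylase subunit and disulfide isomerase P4hb, named after its values were seen, had both above (7.69%, against 14.4%). Since the members were chosen with earlier results of these data known, these shares are a description and no test of the list. Pdia4 and Hyou1, with 31 and 45 UMIs in all microglia, did not pass the filter on low counts.

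**Figure D2:**
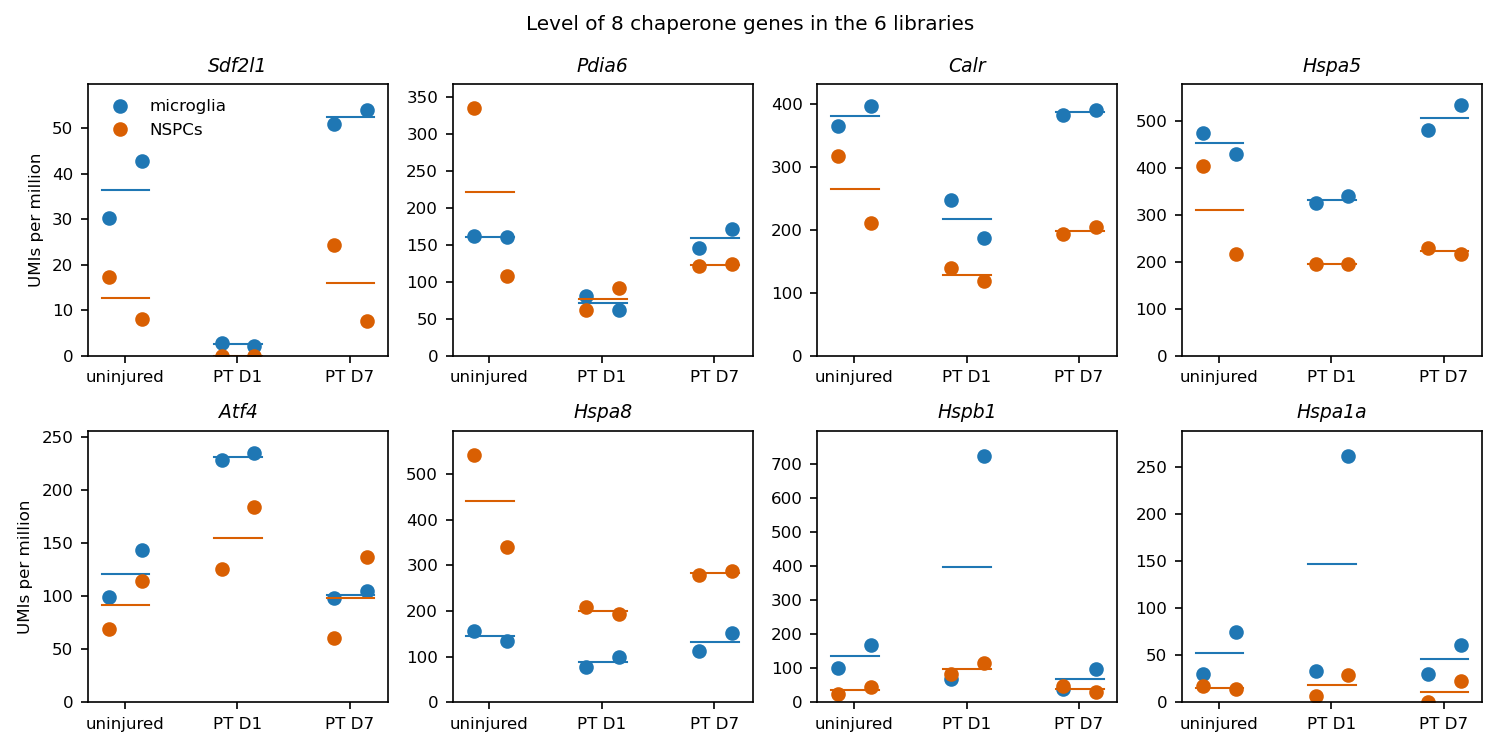
Levels of 8 members in CPM (vertical axis) by condition (horizontal axis), with 1 panel per gene, microglia and NSPCs in different colours, 1 point per library and horizontal lines for the mean of the 2 libraries. Sdf2l1 and Pdia6 sit lower in both PT D1 libraries of microglia, whereas Hspb1 and Hspa1a are high in 1 PT D1 library.

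Markers of another tissue moved in part with these groups. The 5 choroid plexus markers, led by Ttr in that epithelium, summed to 10475 and 4652 CPM in uninjured microglia, 595 and 462 CPM at PT D1, and 617 and 196 CPM at PT D7. Of the 5 markers, 5 and 5 had a UMI in the uninjured libraries, 4 and 5 at PT D1, then 4 and 2 at PT D7. Their sum was thus low at both times after PT, and the ER list only at PT D1. From uninjured to PT D7, 0 of the 32 members were called, beside 0.165% of all genes tested. With so few calls over all genes, this count says little about the members. The part of these cells in the ER levels was not tested.

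Of the UPR regulators in microglia, 1 of 3 tested, Atf4, was called at PT D1, and it was higher. Of all genes tested, 5.7% were called in this comparison and 2.72% were called higher. Atf4, the transcription factor translated when eIF2α is phosphorylated (chr15:80139372-80141745, plus strand, GRCm39), was measured at 98.8 and 143 CPM in uninjured microglia, 228 and 234 CPM at PT D1, and 98.3 and 105 CPM at PT D7. Both PT D1 libraries exceeded the other 4, and its log2 fold change at PT D1 was 1.05 (SE 0.26, adjusted p = 0.0393 by edgeR's quasi-likelihood test). The call was lost in 9 of 15 alternatives (adjusted p from 0.0056 to 0.436, same sign in all), and from PT D1 to PT D7 the change was -1.09 (SE 0.27, adjusted p = 0.0509). Herpud1 was at 71.4 and 59.8 CPM, then 89.0 and 89.3 CPM, then 37.3 and 50.6 CPM, also highest in the PT D1 libraries, with a log2 fold change of 0.57 (SE 0.30, adjusted p = 0.300) at PT D1. Xbp1, whose mRNA is spliced by the ER sensor Ire1 in a way that 3′ counts do not show, was at 135 and 122 CPM, then 145 and 109 CPM, then 88.1 and 74.2 CPM, so that its uninjured and PT D1 libraries overlapped. Ddit3 (Chop), the death-associated factor downstream of Atf4, stayed between 10.1 and 15.6 CPM in the 6 libraries, with 31 UMIs in all, and was not tested. The summed UPR list stood at 140% ± 5.70 (SD, n = 2) of the uninjured mean at PT D1 and at 72.5% ± 0.491 (SD, n = 2) at PT D7. Mean levels in uninjured mice and at PT D1 were 121 and 231 CPM for Atf4 and 65.6 and 89.1 CPM for Herpud1. They were 128 and 127 CPM for Xbp1 and 14.3 and 14.8 CPM for Ddit3, so the higher sum was not shared by each regulator.

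Among the cytosolic HSPs of microglia, the stress-inducible Hspb1 and Hspa1a were high in a single library. Hspb1 (Hsp27), a small heat shock protein, was measured at 102 and 169 CPM in uninjured microglia, 69.5 and 724 CPM at PT D1, and 40.7 and 97.9 CPM at PT D7. Hspa1a, the stress-inducible HSP70, was at 30.2 and 74.8 CPM, then 33.4 and 261 CPM, then 30.5 and 60.7 CPM. In both genes the second PT D1 library was the highest of the 6, and the first lay below or within the range of the uninjured libraries. The log2 fold changes at PT D1 were 1.68 for Hspb1 (SE 0.73, adjusted p = 0.204) and 1.61 for Hspa1a (SE 0.69, adjusted p = 0.204) by edgeR's quasi-likelihood test, and without that library they were -0.86 and -0.58 and still not called. Without the first PT D1 library both were called, at 2.50 (adjusted p = 2.08e-06) and 2.36 (adjusted p = 4.63e-05), as they were without the filter on low counts and with the replicate block. Dnajb1, the HSP40 partner of Hspa1a, named after its values were seen, was at 24.7 and 49.1 CPM, then 52.8 and 154 CPM, then 44.1 and 40.5 CPM. Its 2 PT D1 libraries were the 2 highest, with a log2 fold change of 1.60 (SE 0.48, adjusted p = 0.0811) that was 0.58 without the second PT D1 library.

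That library also held most cells of 1 microglial cluster. Of the 41 microglia that the authors annotated as development-associated, 35 came from the second PT D1 library. Their summed level was 1365 CPM for Hspb1, 492 CPM for Hspa1a and 246 CPM for Dnajb1, compared with 76.5, 36.4 and 60.1 CPM in the 104 activated microglia of PT D1. The whole cytosolic list was at 32.6 UMIs per 10000 in the development-associated cells. In the activated microglia it ranged from 12.5 to 12.8 over the 2 PT D1 libraries. The 15 immediate early genes, a list that also rises when tissue is dissociated, summed to 60.0 UMIs per 10000 in the former cluster and 29.4 in the latter. In the microglial sums this list stood at 18.5 and 23.9 per 10000 in uninjured mice, 26.9 and 45.6 at PT D1, then 13.7 and 17.6 at PT D7, with 4 of 12 members called higher at PT D1 (background 2.72%), among them Ier3 at a log2 fold change of 3.30 (SE 0.32, adjusted p = 0.000484 by edgeR's quasi-likelihood test). The second PT D1 library was the highest of the 6 in this list as in Hspb1. The part of dissociation in these levels was not tested.

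The HSP90 genes lay slightly above the uninjured level in both PT D1 libraries and overlapped with PT D7. The constitutive HSP70 and its partner were low at PT D1, and none of these genes was called. Hsp90ab1 was measured at 590 and 506 CPM in uninjured microglia, 642 and 621 CPM at PT D1, and 437 and 621 CPM at PT D7. Hsp90aa1 was at 253 and 250 CPM, then 278 and 259 CPM, then 197 and 317 CPM, with library 1 of PT D7 the lowest in both HSP90 genes. The log2 fold changes at PT D1 were 0.32 for Hsp90ab1 and 0.22 for Hsp90aa1 (adjusted p = 0.499 and 0.682 by edgeR's quasi-likelihood test). Hspa8 (Hsc70), the constitutive HSP70, was lower in both PT D1 libraries, at 157 and 135 CPM, then 77.8 and 98.3 CPM, then 112 and 152 CPM, with a log2 fold change of -0.59 (SE 0.28, adjusted p = 0.248). Its HSP40 partner Dnaja1 was at 98.8 and 100 CPM, then 44.5 and 67.0 CPM, then 71.2 and 77.6 CPM, with a log2 fold change of -0.70 (SE 0.31, adjusted p = 0.223 by edgeR's quasi-likelihood test). The summed cytosolic list reached 93.8% of the uninjured mean in the first PT D1 library and 169% in the second. Hsph1, with 41 UMIs, did not pass the filter.

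Of TRiC, which folds actin and tubulin, and the mitochondrial chaperones, edgeR called 0 of 5 and 0 of 3 members in microglia at PT D1 (background 5.7%). In each list 1 member had an unadjusted p under 0.05 (background 22.0%), so these counts lie near the background. Cct2 was measured at 76.9 and 74.8 CPM in uninjured mice, 156 and 91.6 CPM at PT D1, and 84.8 and 84.4 CPM at PT D7, with a log2 fold change of 0.82 (SE 0.32, adjusted p = 0.170). Both PT D1 libraries of Cct2 were above the other 4 as a share of all UMIs but not after TMM scaling. Cct8 ranged from 47.3 to 71.4 CPM and Cct5 from 30.5 to 64.1 CPM over the 6 libraries. Summed TRiC stood at 135% ± 9.32 (SD, n = 2) of the uninjured mean at PT D1 and 99.6% ± 15.3 (SD, n = 2) at PT D7. Of the mitochondrial members, the HSP70 Hspa9 was at 43.9 and 23.5 CPM, then 83.4 and 53.6 CPM, then 30.5 and 37.1 CPM, with both PT D1 libraries highest and a log2 fold change of 1.16 (SE 0.40, adjusted p = 0.127 by edgeR's quasi-likelihood test). The chaperonin Hspd1 (Hsp60) was at 54.9 and 51.3 CPM, then 41.7 and 53.6 CPM, then 37.3 and 105 CPM. Its lid Hspe1 (Hsp10) was at 129 and 139 CPM, then 83.4 and 118 CPM, then 153 and 240 CPM, with both PT D1 libraries lowest. The 3 mitochondrial members thus did not move together at PT D1.

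Over all lists, 3 of 32 members tested were called in microglia at PT D1 against uninjured, Atf4 higher and Pdia6 and Sdf2l1 lower, beside 5.7% of all genes tested (2.72% higher and 2.97% lower). From PT D1 to PT D7, 2 of 32 were called, Pdia6 and Sdf2l1 higher, beside 3.8% of all genes (1.69% higher and 2.1% lower). The called shares lie near the background. At an unadjusted p under 0.05 there were 13 of 32 members at PT D1 and 12 of 32 from PT D1 to PT D7, above the backgrounds of 22.0% and 18.7%. Since the members were chosen with earlier results of these data known, this excess is a description and no test of the list. At PT D7 against uninjured edgeR called 0 of 32 (background 0.165%), with 1 at an unadjusted p under 0.05 (background 7.33%), and DESeq2 also called 0. Same-numbered microglial libraries deviated together weakly, and the numbers of the PT D7 libraries are uncertain. With the library number as a replicate block 9 of 32 members were called at PT D1 (13.2% of all genes) and 9 of 32 from PT D1 to PT D7 (9.53%). The additional members under the block at PT D1 were Hspa1a, Dnajb1, Hspb1 and Hspa9, higher by 1.4998, 1.59, 1.29 and 1.15 on the log2 scale, and Calr and Hsp90b1, which fell by 0.70 and 0.83 on the log2 scale. Without the cells of the unknown and development-associated clusters 7 of 31 members were called at PT D1 (12.3% of all genes), with Atf4, Cct2, Hspa9 and P4hb higher and Calr, Pdia6 and Sdf2l1 lower. From PT D1 to PT D7 that fit called 8 (8.51% of all genes). DESeq2 called 0 of 32 at PT D1 (background 2.08%) and from PT D1 to PT D7 (background 1.82%) and gave Sdf2l1 no adjusted p.

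**Figure D3:**
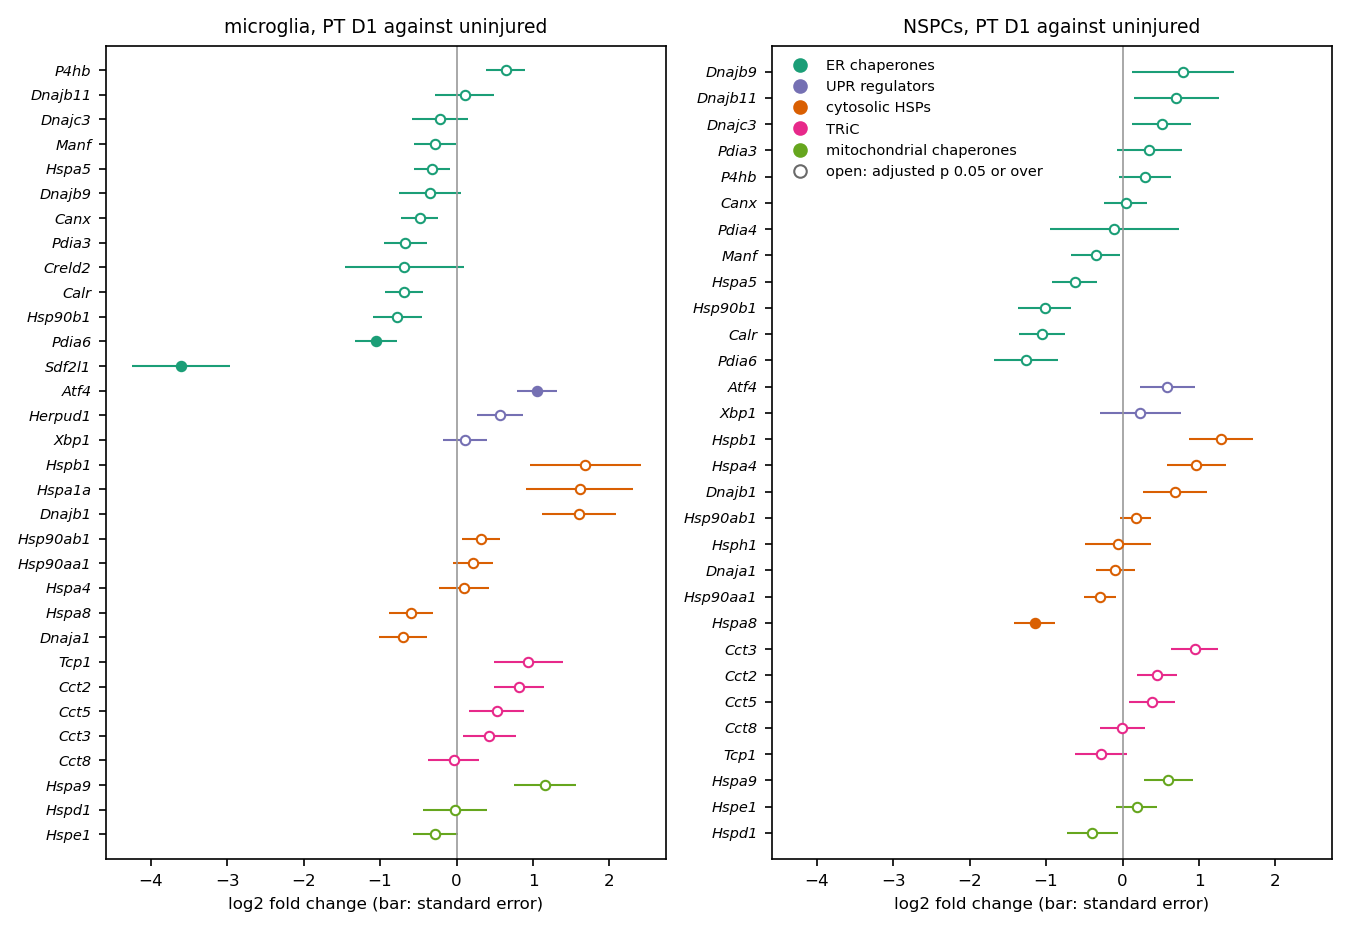
Log2 fold change at PT D1 against uninjured (horizontal axis) of each member tested, grouped and coloured by list, with microglia on the left and NSPCs on the right. Points are the fitted values, bars their standard errors, and filled points those called at an adjusted p under 0.05. In microglia most ER members lie left of 0, with Sdf2l1 at -3.60, and Atf4 lies right of 0.

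In NSPCs, Hspa8 was the member that passed. Hspa8 (chr9:40711630-40731039, plus strand, GRCm39), which folds new proteins and uncoats clathrin vesicles, was measured at 542 and 340 CPM in uninjured mice, 209 and 192 CPM at PT D1, and 279 and 288 CPM at PT D7. The 3 conditions did not overlap. Its log2 fold change at PT D1 against uninjured was -1.15 (SE 0.27, adjusted p = 0.0213 by edgeR's quasi-likelihood test), and 1 of 30 members tested was called, beside 2.12% of all genes (1.04% higher and 1.08% lower). At an unadjusted p under 0.05 there were 8 members (background 14.8%). Without the first uninjured library, a sum of 16 cells, the change was -0.89 with an adjusted p of 0.195, and over 12 alternatives the adjusted p ran from 0.00344 to 0.195. Within the subtypes, the level of Hspa8 was lower at PT D1 than in uninjured mice in quiescent type B cells (202 to 107 CPM), activated type B cells (521 to 230 CPM), type C cells (542 to 226 CPM) and neuroblasts (307 to 197 CPM), as a description of pooled cells.

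Markers of other cells moved in the NSPC sums too. The 5 choroid plexus markers summed to 1523 and 3797 CPM in uninjured NSPCs, 76.6 and 47.4 CPM at PT D1, and 97.0 and 63.2 CPM at PT D7. Of the 5, 2 and 5 had a UMI in the uninjured libraries, 2 and 4 at PT D1, then 2 and 2 at PT D7. The 5 neuroblast markers summed to 3873 and 3961 CPM, then 2088 and 2049 CPM, then 3636 and 3880 CPM. The choroid plexus sum was thus high in the uninjured libraries, as Hspa8 was, and the neuroblast sum was lowest at PT D1. Their part in the levels of Hspa8 and of the ER members was not tested.

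Several ER members were low in the PT D1 NSPCs as well, but here the uninjured libraries differed widely. Calr was measured at 318 and 211 CPM in uninjured NSPCs, 139 and 118 CPM at PT D1, and 194 and 205 CPM at PT D7, with a log2 fold change of -1.06 (SE 0.30, adjusted p = 0.0639). Hsp90b1 was at 465 and 173 CPM, then 160 and 136 CPM, then 255 and 240 CPM. Pdia6 was at 336 and 109 CPM, then 62.6 and 91.8 CPM, then 121 and 124 CPM. Hspa5 was at 405 and 217 CPM, then 195 and 195 CPM, then 230 and 217 CPM. In all 4 genes both PT D1 libraries were the lowest, as in 5 of 30 members tested (background 9.9%, and 13.5% for both PT D1 libraries highest, which 7 members showed), and the first uninjured library was far above the second. In that library of 16 cells, the top cell of each gene was found for each gene alone and may differ between genes. It held 55.3% of the Hspa5 UMIs, 55.6% of those of Hsp90b1, 38.5% of those of Pdia6, 32.4% of those of Calr and 19.0% of those of Hspa8. The ER list summed to 24.4 and 13.5 UMIs per 10000 in uninjured NSPCs, 13.9 and 13.5 at PT D1, then 14.8 and 14.6 at PT D7, so the second uninjured library lay as low as those after PT. The median log2 fold change of the 12 ER members tested was -0.03 at PT D1, beside 0.03 over all genes. Canx overlapped between conditions, and Sdf2l1, at 2 and 4 UMIs, then 0 and 0, then 2 and 3, was not tested in NSPCs.

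No stress-inducible member passed in NSPCs at PT D1. Hspb1 was at 25.8 and 44.2 CPM in uninjured NSPCs, 83.5 and 115 CPM at PT D1, and 48.5 and 30.3 CPM at PT D7. Both PT D1 libraries exceeded the other 4, unlike in microglia, and the log2 fold change was 1.29 (SE 0.42, adjusted p = 0.115 by edgeR's quasi-likelihood test). Hspa1a was at 17.2 and 14.1 CPM, then 6.96 and 29.6 CPM, then 0 and 22.8 CPM, overlapping on 29 UMIs in all, and was not tested. Atf4 was at 68.9 and 115 CPM, then 125 and 184 CPM, then 60.6 and 137 CPM. Both PT D1 libraries of Atf4 exceeded both uninjured ones, and PT D7 overlapped with each condition. Its log2 fold change at PT D1 was 0.58 (adjusted p = 0.474 by edgeR's quasi-likelihood test). Of the TRiC subunits, Cct3 was at 112 and 113 CPM, then 278 and 195 CPM, then 255 and 205 CPM. Its uninjured libraries lay below all 4 libraries after PT, and the log2 fold change was 0.94 (SE 0.30, adjusted p = 0.112) at PT D1. Cct2 was at 258 and 191 CPM, then 341 and 287 CPM, then 242 and 281 CPM. Hspa9 was at 86.1 and 98.5 CPM, then 174 and 139 CPM, then 72.7 and 101 CPM, with both PT D1 libraries highest and a log2 fold change of 0.60 (SE 0.33, adjusted p = 0.400). Of 613482 NSPC UMIs in uninjured mice, 103640 came from activated type B and 143804 from type C cells. At PT D1 these were 221846 and 75257 of 481377, and at PT D7 90818 and 176297 of 478098. When pooled, both subtypes had more TRiC and mitochondrial chaperones than quiescent type B cells and neuroblasts. The part of this cell mix in Cct3, Cct2 and Hspa9 was not tested. Hsp90aa1 (1265 and 1096, 1190 and 844, 1406 and 1221 CPM) and Hsp90ab1 (1687 and 1098, 1733 and 1507, 1503 and 1448 CPM) overlapped between conditions.

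In NSPCs the immediate early list stood at 7.49 and 9.07 UMIs per 10000 in uninjured mice, 15.0 and 19.1 at PT D1, then 9.09 and 7.41 at PT D7, with 3 of 10 members called higher at PT D1 (background 1.04%). From PT D1 to PT D7 edgeR called 0 of 30 chaperones (background 0.632%), with 5 at an unadjusted p under 0.05 (background 10.8%). At PT D7 against uninjured it called 0 of 30 (background 0.0815%), with 2 at an unadjusted p under 0.05 (background 4.69%). DESeq2 called 0 of 30 in all 3 comparisons (background 0.346% at PT D1 against uninjured).

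Whether the change at PT D1 differed between the classes was tested as an interaction. It was called for 0 of 35 members (background 0.24%), with 2 at an unadjusted p under 0.05 (background 6.84%). At PT D7 it was called for 0 of 35 (background 0.0399%), with 0 at an unadjusted p under 0.05 (background 3.89%). DESeq2 called 0 in both. The differences in the change at PT D1, microglia minus NSPCs, were 0.63 (SE 0.94) on the log2 scale for Sdf2l1, 0.30 (SE 0.49) for Atf4 and 0.49 (SE 0.46) for Hspa8. The calls in 1 class are thus not shown to be particular to it.

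With TMM scaling the classes themselves differed in almost every chaperone tested, and the direction mostly followed the compartment. Of 31 members tested over the 12 sums with library as a term, 28 were called, 16 higher and 12 lower in microglia than in NSPCs, beside 62.5% of all genes tested (31.8% higher and 30.7% lower, and 65.6% at an unadjusted p under 0.05). With cells assigned by marker genes instead of the authors' clusters, which were drawn from the same counts, 28 were also called. That assignment uses the same counts as well and moves few cells, so it is no independent check. ER members made up 10 of the 16 that were higher, out of 11 tested, with a median log2 difference of 0.81, and the 3 UPR regulators tested were all higher, with a median of 1.62, beside -0.01 over all genes. Among these, Xbp1 was 2.16 (SE 0.22, adjusted p = 7.32e-09) higher on the log2 scale, Pdia3 1.68 (SE 0.24, adjusted p = 1.47e-06), Herpud1 1.62 (SE 0.26, adjusted p = 5.7e-06) and Hspa5 1.52 (SE 0.19, adjusted p = 1.07e-07) by edgeR's quasi-likelihood test. Xbp1 stood between 74.2 and 145 CPM in the 6 microglial sums and between 20.2 and 50.3 CPM in the NSPC sums, so the classes did not overlap. Pdia3, which pairs with Calr and Canx on glycoproteins, was at 93.8 to 230 CPM in microglia and 48.7 to 170 CPM in NSPCs. In the first PT D7 pair it was at 210 and 170 CPM.

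The cytosolic and mitochondrial chaperones lay mostly on the NSPC side. All 5 TRiC subunits were called lower in microglia (median log2 difference -0.93), led by Cct3 at -1.33 (SE 0.21, adjusted p = 6.79e-06) and Tcp1 at -0.94 (SE 0.25, adjusted p = 0.00211). Hsp90aa1 was at -1.49 on the log2 scale (SE 0.17, adjusted p = 3.72e-08), Dnaja1 at -1.48 (SE 0.20, adjusted p = 4.62e-07) and Hsph1, the nucleotide exchange factor of HSP70, at -1.13 (SE 0.28, adjusted p = 0.00119 by edgeR's quasi-likelihood test). Hsp90aa1 was at 197 to 317 CPM in microglia and 844 to 1406 CPM in NSPCs, with no overlap. Of the mitochondrial members, Hspd1 and Hspa9 were called lower, and Hspe1 was not called at -0.18 (SE 0.19, adjusted p = 0.427). Exceptions among the cytosolic HSPs were Hspa1a at 2.96 (SE 0.32, adjusted p = 1.46e-08) and Hspb1 at 2.29 (SE 0.30, adjusted p = 3.36e-07 by edgeR's quasi-likelihood test), both higher in microglia. The immediate early list was also higher in microglia, in 9 of 10 members tested (background 31.8%). In Hspa1a and Hspb1 the sums of the second PT D1 library were the highest. Dnajb1 was also called higher in microglia, at 0.74.

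**Figure D4:**
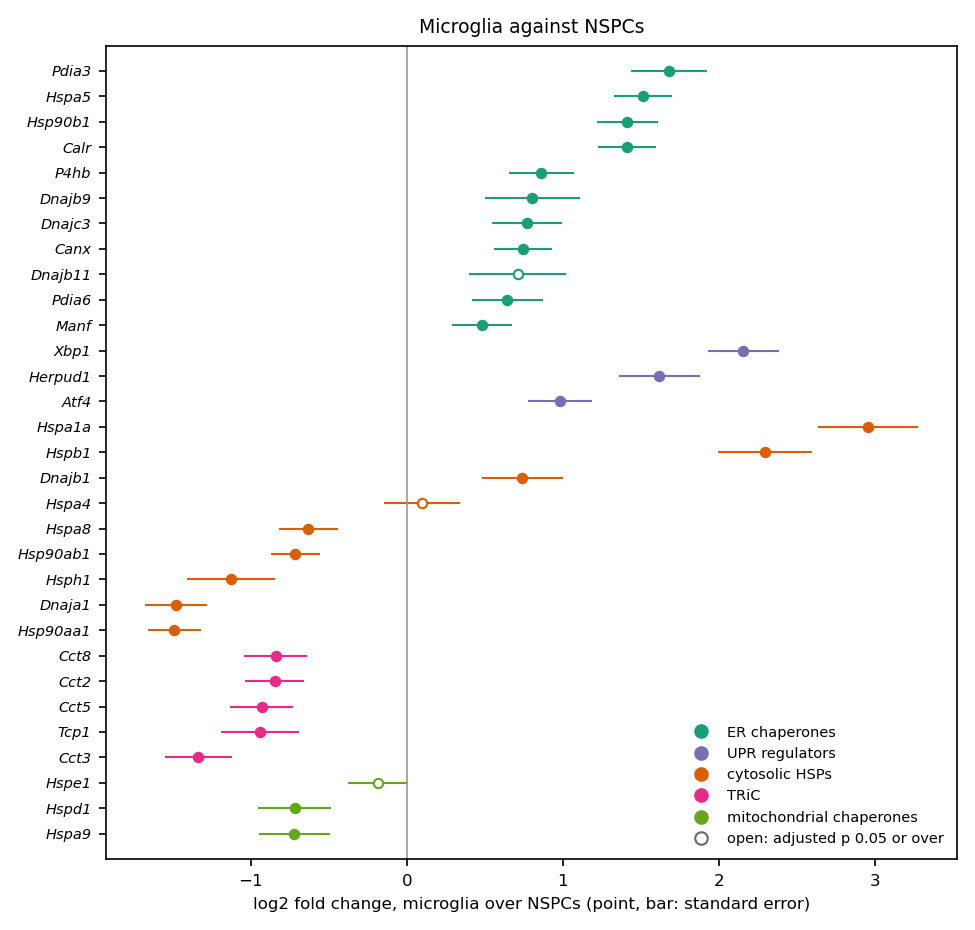
Log2 difference between microglia and NSPCs (horizontal axis, positive where microglia are higher) of the 31 members tested, grouped by list, with points for the fitted values, bars for the standard errors and filled points for members called at an adjusted p under 0.05. ER and UPR members lie right of 0, TRiC left of 0, and of the cytosolic HSPs Hspa1a at 2.96 and Hspb1 at 2.29 lie farthest right.

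This split depends in part on scaling. Without TMM factors the median over all genes was -0.71, 8 members were called higher and 14 lower (74.3% of all genes called), and Pdia6, Manf and Hspa4 lay below 0 at -0.064, -0.23 and -0.61. The members named above as higher or lower kept their sign in that fit. Of the ER members called higher, Calr, Hspa5, Hsp90b1 and Pdia3 stayed called. Canx, Pdia6, P4hb, Dnajb9, Dnajc3 and Manf, some named here after their values were seen, were not called without TMM factors. Neither were Atf4 and Dnajb1. The median cell held 4854.5 UMIs in microglia and 6449 in NSPCs, with 7.19% and 12.4% of UMIs from mitochondrial genes. With cells of at most 10% mitochondrial UMIs, a fit that rested on the second library of each condition, 9 of 20 members were called, 7 higher and 2 lower. The calls lost there were those of Canx, Pdia6, Dnajc3, Manf, Xbp1, Hsp90ab1 and Hspa8 and of the TRiC subunits Cct2, Cct5 and Cct8. The part of cell quality in the difference was not tested.

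Within NSPCs the authors' subtypes follow the lineage from quiescent type B stem cells over activated type B and type C cells to neuroblasts, and their values are a description, since the clusters were drawn from these counts. Cytosolic HSPs summed to 19.5 UMIs per 10000 in quiescent type B cells (50 cells), 40.6 in activated type B cells (45 cells), 44.3 in type C cells (47 cells) and 28.4 in neuroblasts (80 cells). Over libraries with at least 5 cells of a subtype the ranges were 18.0 to 23.3, 33.8 to 45.4, 41.0 to 60.6 and 26.4 to 31.6, so quiescent cells did not overlap with any other subtype and activated type B and type C cells did with each other. Hsp90aa1 had the same order, at 531, 1319, 1672 and 819 CPM. TRiC stood at 5.21, 11.3, 10.7 and 6.89 UMIs per 10000, and the mitochondrial chaperones at 4.65, 7.09, 5.56 and 2.85. Activated type B and type C cells lay above quiescent cells in all 3 lists when cells were pooled. By library the TRiC ranges were 3.36 to 6.69 in quiescent type B, 9.44 to 14.4 in activated type B and 9.30 to 11.7 in type C cells, without overlap with quiescent cells. The mitochondrial ranges, 4.22 to 5.93, 5.37 to 8.70 and 4.67 to 8.78, overlapped. At most 10% mitochondrial UMIs were found in 23 of 50 quiescent type B, 3 of 45 activated type B, 1 of 47 type C cells and 21 of 80 neuroblasts, and the part of this difference in the levels was not tested. ER chaperones had another order when cells were pooled, at 16.1 in quiescent type B, 19.6 in activated type B and 13.5 in type C cells and 10.2 in neuroblasts. By library the ranges were 14.3 to 16.8, 13.3 to 19.3, 9.01 to 14.9 and 9.29 to 12.9. Quiescent and activated type B cells thus overlapped, and type C cells overlapped with all others. The 4 and 4 activated type B cells of the uninjured libraries enter the pooled value but not the range. Xbp1 was at 86.3 CPM in quiescent type B, 38.4 CPM in activated type B and 5.06 CPM in type C cells and at 30.4 CPM in neuroblasts. These pooled values rest on 58 UMIs in all NSPCs, and that of type C cells is near the floor.

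Among microglia, the ER list was at 26.3 UMIs per 10000 in homeostatic cells (175 cells), 30.8 in disease-associated cells (37 cells, 29 of them from PT D7), 17.3 in activated cells (104 cells), 13.9 in development-associated cells (41 cells) and 13.8 in the cluster of unknown type (59 cells). By library, the homeostatic range of 25.3 to 33.6 and the disease-associated range of 25.1 to 34.0 overlapped almost fully. Sdf2l1 was at 38.1 CPM in homeostatic, 74.4 in disease-associated, 1.82 in activated, 4.24 in development-associated and 29.6 in unknown microglia. The unknown cluster, low in the ER list, was thus near the homeostatic cells in Sdf2l1, on 10 UMIs. Activated microglia occurred at PT D1 alone, and 1 homeostatic cell was left there, so cluster and condition cannot be told apart, and neither can a smaller share of a cell type and less RNA per cell in the sums. Homeostatic cells could be compared between uninjured mice (124 cells) and PT D7 (50 cells), where Hspa5 was at 458 and 621 CPM and Calr at 418 and 410 CPM. The UPR list was at 4.70 in activated, 4.49 in development-associated, 3.47 in homeostatic and 2.64 in disease-associated microglia. Atf4 stood at 231 CPM in activated and 243 CPM in development-associated microglia of PT D1, so it did not follow the split seen for Hspb1.

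**Figure D5:**
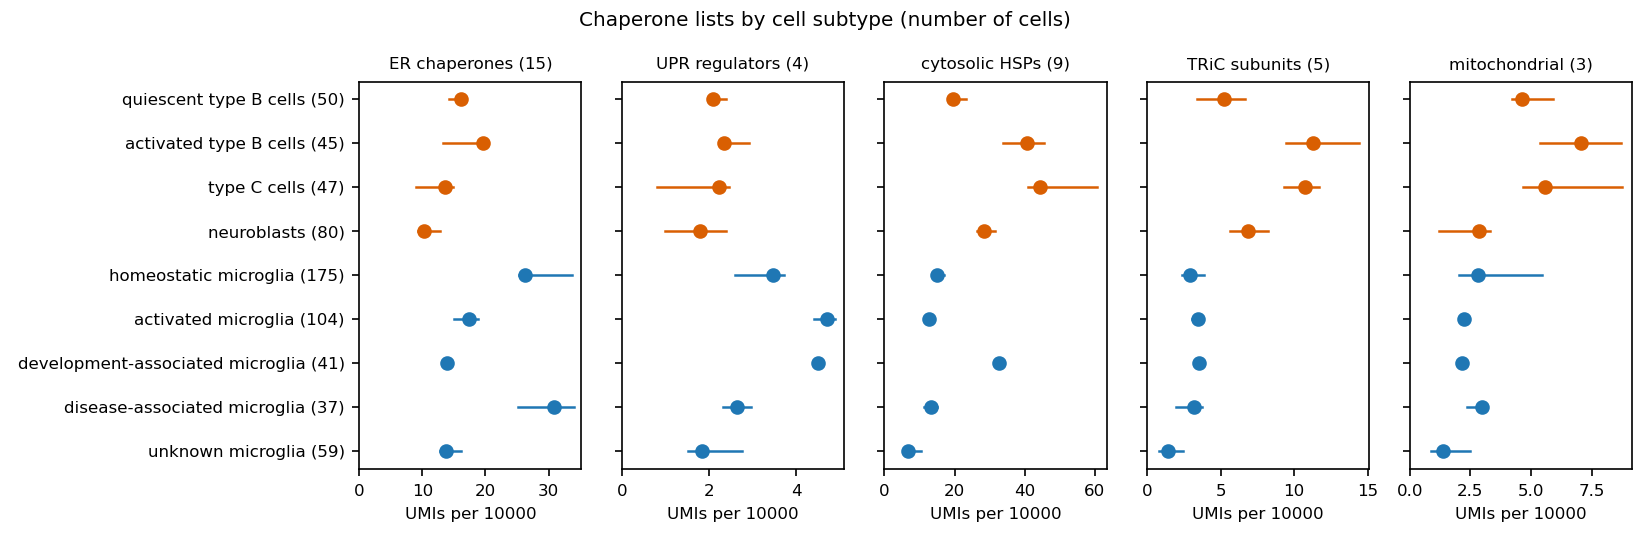
Summed level of each chaperone list in UMIs per 10000 UMIs (horizontal axis) in the 4 NSPC subtypes and the 5 microglial clusters (vertical axis), with points for the pooled cells and lines for the range over libraries with at least 5 cells of the cluster. Of the pooled values, cytosolic HSPs are highest at 44.3 in type C cells, and the ER list at 30.8 in disease-associated microglia. Their ranges overlap with those of activated type B cells and of homeostatic microglia.

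The other genes of these pathways were tested beside the members. Of 39 further chaperone and UPR genes tested in microglia, edgeR called 0 at PT D1 against uninjured (background 5.7%), with 4 at an unadjusted p under 0.05 (background 22.0%). From PT D1 to PT D7 it called 2 (background 3.8%). Fkbp5, an HSP90 co-chaperone of steroid receptors, fell by 2.33 and the ER stress sensor Atf6 fell by 2.09 on the log2 scale (adjusted p = 0.00205 and 0.0129 by edgeR's quasi-likelihood test). In NSPCs 0 of 44 were called in each comparison of conditions (background 2.12% at PT D1), with 5 at an unadjusted p under 0.05 at PT D1 (background 14.8%). Of 17 further genes of ER folding and quality control tested in microglia at PT D1, 10 had a log2 fold change below 0, with a median of -0.05 that was close to the 0.04 of all genes. Between the classes, 13 of 45 were called higher and 13 lower in microglia, near the 31.8% and 30.7% of all genes. ER quality control was higher in 9 of 15, led by Edem1, which sends misfolded glycoproteins to degradation, at 2.91, and Erp29 at 1.96. TRiC and prefoldin were lower in 7 of 9, with Pfdn4 at -1.88. Both directions were those of the corresponding members.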

How the data were processed

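Single SVZ microglia and NSPCs were sequenced by mCEL-Seq2 in 6 libraries, 2 for each of 3 conditions. Per the labels, bcl2fastq 2.17.1.14 was used for demultiplexing and GRCm39 as the genome. No source used here names the aligner, the counting program or the annotation. The values deposited by the authors are raw UMI counts of 34203 genes in 658 cells, with no normalization. The authors had removed cells with few UMIs, cells with outlying totals as putative doublets and cells rich in mitochondrial UMIs, and no doublet caller was run here. The percent of mitochondrial UMIs per cell was deposited by the authors beside class and cluster. The 92 ERCC rows held 0 UMIs.

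UMIs were summed per class and library and tested in edgeR 4.0.16 (R 4.3.3) with TMM factors, filterByExpr, the 3 conditions fitted together, and Benjamini-Hochberg adjustment over all genes tested. Microglia and NSPCs were compared over 12 sums with library as a term, and the difference in change as an interaction. The fits were also run on simulated data with 200 changed genes, and the share recovered is not given here. The counts of 0 called thus carry no estimate of how many changes were missed. Ratios of UMIs carry exact 95% intervals for counting error only, and depth per sum is given with the results. Leaving out the TMM factors shifted the median gene in log2 terms to -0.25 in microglia at PT D7 against uninjured, -0.11 from PT D1 to PT D7 and -0.09 at PT D1, and 0.10 in NSPCs at PT D1.

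Library numbers were taken from the labels and, for PT D7, from the final digit of cell names. No label states that map for PT D7, so only the condition of these libraries is certain, and the replicate block rests on it. No source says that equal numbers share a batch. In microglia the deviations of same-numbered libraries from their condition means correlated in each pair of conditions (0.22, 0.193 and 0.262), so counts from fits with this number as a block are given. In NSPCs they did not (0.095, -0.0581 and -0.041).

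Members named with values were those called in a comparison of conditions, the 3 with the highest mean level of each list in each class, the 5 called members with the largest class difference each way, and Calr. Others are named as chosen after their values were seen or given in counts. The members and lists were chosen with earlier results of these data known. Alternatives were DESeq2 1.42.0, no TMM factors, no filter, at least 10 UMIs in every library, only the conditions compared, the replicate block, cells with at most 10% mitochondrial UMIs, cells with under 3 UMIs of the markers of the other class, no cells of clusters 2 (unknown) and 3 (development-associated), class from markers, and each library left out in turn. Levels on the TMM scale were added after the data had been seen. Promoters came from RefSeq (GRCm38.p6), which gave no entry for Manf, Hyou1, Hsp90aa1, Hsp90ab1, Hspa8 and Hspa9. Gene positions are from GENCODE on GRCm39.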

Additional observations from a re-analysis of the deposited data

How the results depend on the processing

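Among members called, the direction held in all alternatives run except the class differences of Pdia6 and Manf without TMM factors (-0.064 and -0.23 on the log2 scale). Hspa4, not called at 0.097, was called at -0.61 in that fit. Depth limits the rarest members, with 2 UMIs of Sdf2l1 at PT D1 and 15 to 19 NSPCs in the first libraries. In microglia at PT D1 against uninjured (3 members called), DESeq2 called 0, the fit of only these conditions 1, the replicate block 9 and the fit without clusters 2 and 3 7, and leaving out a library gave 0 (without uninjured library 2) to 9 (without PT D1 library 1). From PT D1 to PT D7 (2 called), the counts were 0 with DESeq2, 6 with cells of at most 10% mitochondrial UMIs, 0 with cells under 3 UMIs of NSPC markers, 4 without the filter, 1 with only these conditions, 9 with the replicate block, 8 without clusters 2 and 3, and 1 to 9 when a library was left out (9 without PT D1 library 1). In NSPCs at PT D1 (1 called), DESeq2 called 0 and a minimum of 10 UMIs in every library 2, and leaving out a library gave 0 (without PT D1 library 2 or uninjured library 1) to 4 (without PT D7 library 1); from PT D1 to PT D7 it gave 0 to 1. In NSPCs, where the library numbers did not pair the samples, the replicate block called 1 member at PT D1 and changed no count. Between the classes (28 called), 11 were called at a minimum of 10 UMIs, which left 12 members, 9 with at most 10% mitochondrial UMIs, which left 20, and 24 to 29 when a library was left out. Where cells instead of UMIs had equal weight, the list sums in percent of uninjured were 85.1 at PT D1 and 91.9 at PT D7 for the ER list in NSPCs (72.5 and 77.6), 128 and 75.2 for the UPR list in microglia (140 and 72.5, the latter 71.0 without mitochondrial UMIs in the total), 130 for TRiC (121) and 128 for the mitochondrial list (110) in NSPCs at PT D7. With cells of at most 10% mitochondrial UMIs, the summed levels per 10000 were 13.5 in quiescent type B cells and 8.59 in neuroblasts for the ER list, 2.25 in quiescent type B cells and 4.25 in activated microglia for the UPR list, 25.3 in neuroblasts, 13.4 in homeostatic and 11.5 in activated microglia for the cytosolic list, 5.32 in neuroblasts for TRiC and 1.98 in activated microglia for the mitochondrial list. The filters on mitochondrial UMIs and on other-class markers were not run for the conditions in NSPCs, nor the marker filter for the class difference, since too few cells were left. Of the other counts and list levels under an alternative 136 stayed within 1.5 times the count or 1 SD. Except where an alternative tests fewer members or libraries, the cause was not tested.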

Other observations

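The 20 cells that the authors annotated as neither microglia nor NSPCs entered no comparison. Their summed ER list was at 42.0 UMIs per 10000 in uninjured mice (4 cells of 1 library), 21.8 at PT D1 (8 cells) and 22.4 at PT D7 (8 cells). All 36 members together were at 113, 61.7 and 63.6 UMIs per 10000. By library, the ER list of these cells was at 21.1 and 23.2 at PT D1 and at 25.7 and 18.3 at PT D7.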
